A study of Caenorhabditis elegans with 6 samples.

Results

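The major sperm protein genes and their clustered companions were examined in the accessible chromatin of isolated germ nuclei (IGN). Members were all genes that the Ensembl annotation of WBcel235 lists as protein-coding under a name that begins with msp-, ssp- or nspd-, and 53 of 19973 protein-coding genes met this rule: 31 *msp*, 12 *ssp* and 10 *nspd* genes. ATAC-seq, in which a transposase cuts open DNA, had been performed on IGN of 3 *prde-1* mutant and 3 wild type samples. The *prde-1* mutant animals carried *prde-1(mj207)V* (strain SX2499, a backcrossed strain that becomes sterile over generations), and the wild type animals were strain VC2010. Animals of both groups were young adults grown at 20°C, with the mutant collected at a later hour of growth but a matched stage of embryo carrying, so that genotype and hour cannot be told apart. Each genotype is represented by a single peak list drawn from its 3 samples together, with 9674 peaks for the *prde-1* mutant and 13996 for wild type. No value per sample and no sequencing depth stands behind a peak, so no difference between the genotypes could be tested, and intervals beside shares are 95% Wilson intervals, which cover counting error only.

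Major sperm protein is the motility protein of nematode sperm. Its filaments, in place of actin, drive the crawling of the amoeboid sperm cell, and the protein shed by sperm also acts as the signal for oocyte maturation and ovulation. The *ssp* genes are named as a sperm-specific family and the *nspd* genes as nematode-specific peptides of group D. In the hermaphrodite germ line sperm are made in late larval development, before the switch to oocytes, so the germ nuclei of a young adult lie mostly outside spermatogenesis. PRDE-1 belongs to the upstream sequence transcription complex (USTC), which is required for transcription of the Type-I piRNA genes, those clustered on chromosome IV.

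The members are short genes present in many near-copies. Of the 31 *msp* genes, 28 are 384 bp long, and across the 378 pairs of these the coding sequences were identical at a median of 92.4% of positions (range 86.2% to 99.5%). Upstream, 3 short sequences recurred at nearly fixed distances from the annotated 5′ end, which is the start codon (ATG) in 50 of the 53 gene models: the palindrome AGATCT, the GATA factor site AGATAA and the TATA box TATAAA. Sequences from 110 to 51 bp upstream, read from the WBcel235 genome in the direction of transcription with the first base of the gene as position 0, show the arrangement, with matches on either strand in capitals. The *msp-50* and *msp-31* sequences carry all 3 matches and belong to genes with a peak, and *msp-65* carries them without a peak. Of the exact matches, *msp-40* carries the palindrome alone, and *msp-142* carries none. Related sequences were not counted, such as tgataa in *msp-40* or tatataag in *msp-142* and *nspd-7*. A gene without a match may therefore still hold a variant of the GATA site or the TATA box. The *nspd-4* sequence shows the order found in that family, *nspd-7* is the *nspd* gene with a peak in both lists, and *ssp-10* stands for the *ssp* genes.
msp-50: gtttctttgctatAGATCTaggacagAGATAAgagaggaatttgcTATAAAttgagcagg
msp-31: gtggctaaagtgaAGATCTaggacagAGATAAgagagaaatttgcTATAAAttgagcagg
msp-65: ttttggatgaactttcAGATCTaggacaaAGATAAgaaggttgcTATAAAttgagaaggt
msp-40: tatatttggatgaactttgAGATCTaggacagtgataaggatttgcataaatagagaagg
msp-142: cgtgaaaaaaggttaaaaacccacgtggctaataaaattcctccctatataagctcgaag
nspd-4: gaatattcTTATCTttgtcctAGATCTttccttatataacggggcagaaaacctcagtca
nspd-7: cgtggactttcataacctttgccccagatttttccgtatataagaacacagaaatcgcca
ssp-10: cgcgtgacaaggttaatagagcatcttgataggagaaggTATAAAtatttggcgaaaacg
These sequences lie in ce11 at chrII:5199687-5199746 (plus strand, *msp-50*), chrII:4916613-4916672 (minus, *msp-31*), chrIV:5316413-5316472 (plus, *msp-65*), chrII:4825304-4825363 (plus, *msp-40*), chrII:5797817-5797876 (plus, *msp-142*), chrII:4842498-4842557 (plus, *nspd-4*), chrIV:10269238-10269297 (minus, *nspd-7*) and chrIV:9851082-9851141 (minus, *ssp-10*).

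In the window from 250 bp upstream to 50 bp downstream of the 5′ end, counted on both strands, AGATCT was found in 31 of the 53 members (58.5%), against 5.39% of all protein-coding genes. AGATAA was found in 29 members (54.7%), against 21.2% of all protein-coding genes, and TATAAA in 31 members (58.5%), against 37.9%. These shares are descriptions, since near-copies are not independent. The window is also placed by the start codon in most members, while in other genes the annotated 5′ end may lie upstream of the start codon. The families differed in which matches they held. AGATCT was present in 23 of 31 *msp*, 0 of 12 *ssp* and 8 of 10 *nspd* genes, AGATAA in 19 *msp*, 3 *ssp* and 7 *nspd* genes, and TATAAA in 24 *msp*, 6 *ssp* and 1 *nspd* gene. In *msp* genes the AGATCT match began at a median of 94 bp upstream, the sense AGATAA match at 81 bp (range 79 to 84 bp) and the sense TATAAA match at 65 bp. The order of palindrome, GATA site and TATA box on the sense strand within 45 bp was met in 14 of 31 *msp* genes, in 0 *ssp* and 0 *nspd* genes, and in 7 of 19920 other protein-coding genes (0.0351%). In *nspd* genes the GATA match lay on the opposite strand and upstream of the palindrome. That order within 45 bp was met in 7 of 10 *nspd* genes, in 0 *msp* genes and in 28 other protein-coding genes (0.141%). Both orders were chosen after the matches of the members had been seen, so these counts describe the patterns and do not test them. AGATCT was found in 0 of 50 other spermatogenesis genes. That list holds the numbered *spe* and *fer* genes and further genes chosen by name, among them *gsp-3*, *fog-1*, *elt-1*, *try-5* and *swm-1*, and not all of these are specific to sperm.

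**Figure D1:**
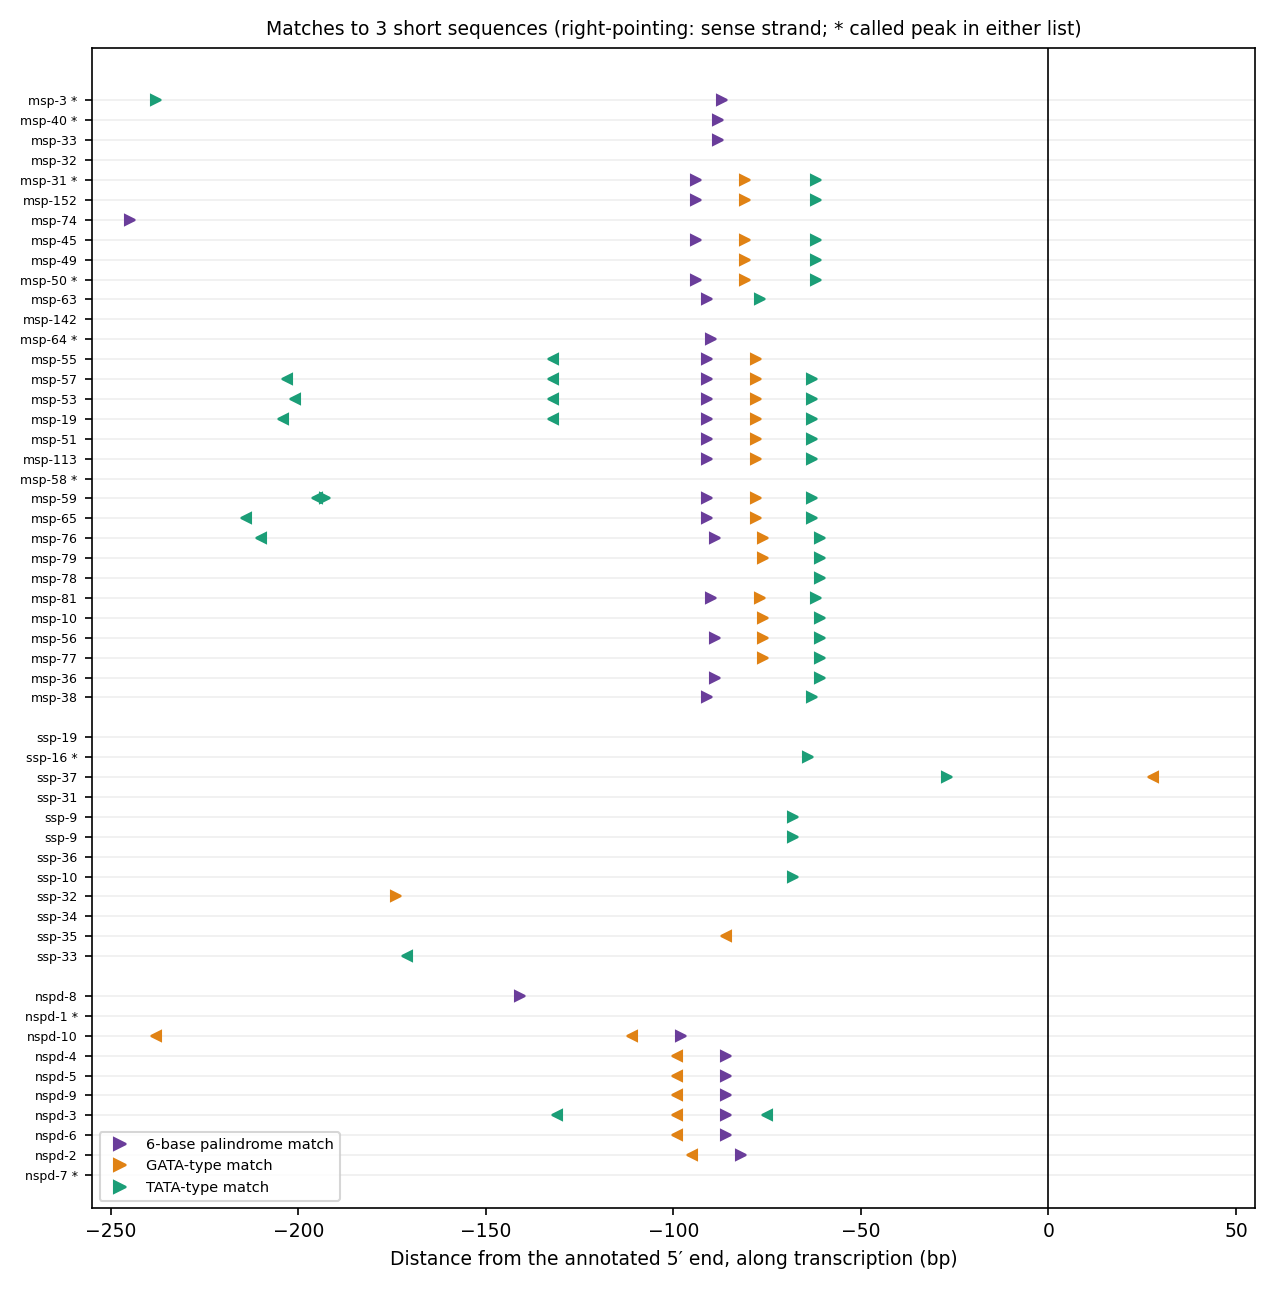
Matches to the palindrome, the GATA site and the TATA box by distance from the annotated 5′ end (bp, horizontal) for each of the 53 members (rows, grouped as *msp*, *ssp* and *nspd*); markers stand at the centre of a match, pointing right for the sense strand, and an asterisk marks a member with a peak in either list. The 3 columns of markers between 60 and 100 bp upstream are seen in the *msp* genes, and the *nspd* genes have the left-pointing GATA marker upstream of the palindrome.

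Few of the sperm family genes had a called peak. A peak within 500 bp of the 5′ end or in the gene body was found at 5 of the 53 members (9.43%, interval 4.10% to 20.3%) in the *prde-1* mutant, where 31.2% of all protein-coding genes had one. In wild type it was found at 7 of 53 members (13.2%, interval 6.55% to 24.8%), where 39.4% of all protein-coding genes had one. By family, the *prde-1* mutant list had a peak at 3 of 31 *msp* (9.68%), 1 of 12 *ssp* (8.33%) and 1 of 10 *nspd* genes (10.0%), and the wild type list at 4 of 31 *msp* (12.9%), 1 of 12 *ssp* (8.33%) and 2 of 10 *nspd* genes (20.0%). The intervals of the families overlap in both lists, so that no order among *msp*, *ssp* and *nspd* genes was detectable with these numbers of genes. Of the other 50 spermatogenesis genes, 15 (30.0%) had a peak in the *prde-1* mutant and 17 (34.0%) in wild type. These genes are longer, with a median of 1926 bp against 384 bp for the members, so the shares are not like for like. Among germ line markers 17 of 20 had a peak in the *prde-1* mutant and 17 of 20 in wild type, and among somatic markers 11 of 20 in the *prde-1* mutant and 15 of 20 in wild type, so that peaks at muscle, neuron, intestine or hypodermis genes were also present in these lists. With the 5′ end inside a peak, 3 of 20 germ line markers counted in the *prde-1* mutant and 4 in wild type. Of the 20 somatic markers, 4 counted in the *prde-1* mutant and 8 in wild type. The somatic markers are also longer, with a median of 5130.5 bp against 2664.5 bp, so no order between the marker lists can be read from these counts. The part of nuclei other than germ nuclei in the member peaks was not tested. The *prde-1* gene had 0 peaks in the *prde-1* mutant and 0 in wild type in the same window, so the lists give no check of the genotype.

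**Figure D2:**
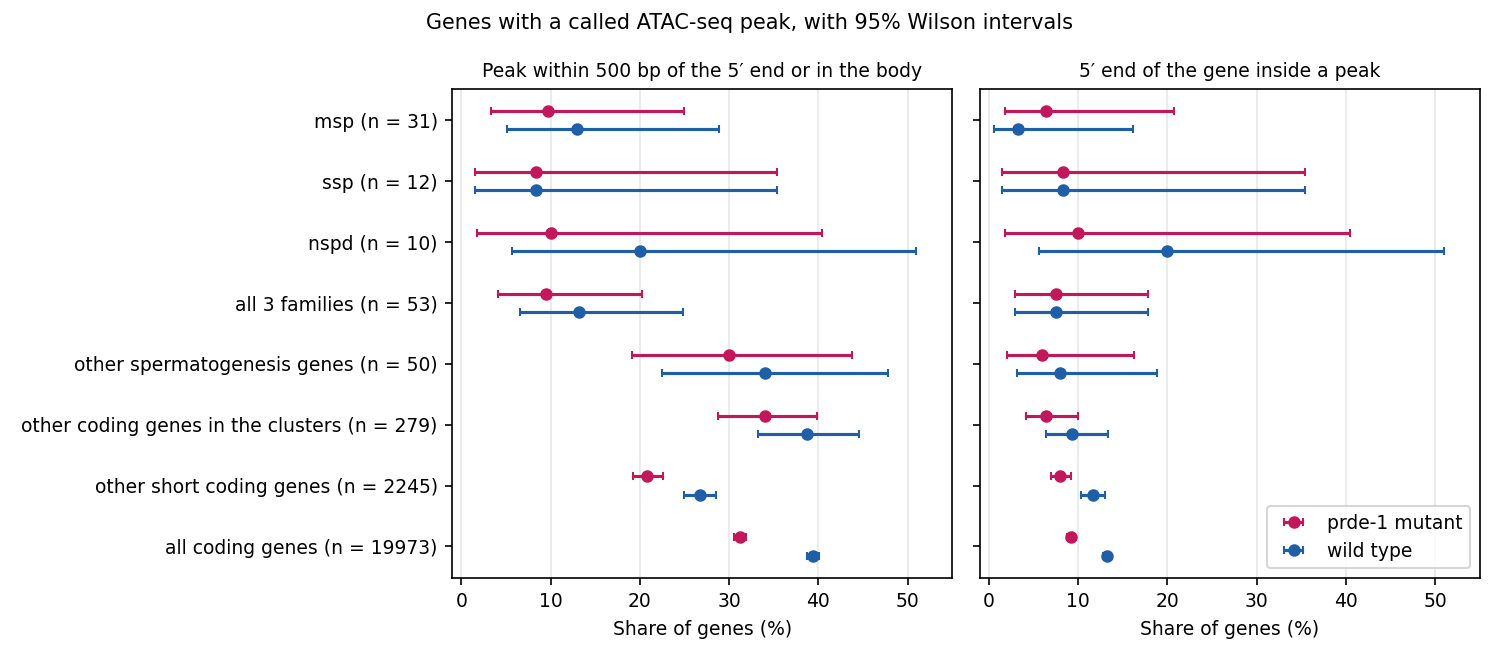
Share of genes (%, horizontal) with a called peak by 2 rules, a peak in the window (left) and the 5′ end inside a peak (right), in the *prde-1* mutant and wild type; points are shares and bars are 95% Wilson intervals. With the window, 9.43% of members in the *prde-1* mutant and 13.2% in wild type lie below all coding genes (31.2% in the *prde-1* mutant and 39.4% in wild type), while with the 5′ end inside a peak the intervals of the members include the shares of all coding genes.

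Gene length bears on these shares, because a longer gene offers more room for a peak. The longest member is 749 bp, and among the 2245 other protein-coding genes no longer than this 20.8% had a peak in the *prde-1* mutant and 26.7% in wild type. In the *prde-1* mutant that share lies just above the upper bound of the members, 20.3%. In wild type it lies above their upper bound of 24.8%. The short genes had a median length of 500 bp against 384 bp for the members, so a difference in length remains. When a gene counted only if its 5′ end lay inside a peak, 4 of 53 members (7.55%, interval 2.97% to 17.9%) counted in the *prde-1* mutant and 4 of 53 in wild type, against 8.02% of the short genes and 9.18% of all protein-coding genes in the *prde-1* mutant and 11.6% and 13.2% in wild type. All of these values lie inside the interval of the members. By the same rule 3 of the 50 other spermatogenesis genes (6%) counted in the *prde-1* mutant and 4 (8%) in wild type. Both shares also lie inside that interval, so no difference between this list and the members was detectable at the 5′ end. Members with a called peak over a fixed base farther upstream were rarer still. The base 80 bp upstream, near the GATA match of *msp* genes, lay inside a peak at 1 of 53 members in the *prde-1* mutant (*msp-50*; 1.89%, interval 0.334% to 9.94%) and at 0 of 53 in wild type (Wilson upper bound 6.76%). At the same distance 10.2% of the short genes in the *prde-1* mutant and 12.9% in wild type had a peak, as had 12.4% of all protein-coding genes in the *prde-1* mutant and 15.9% in wild type, in each case above the upper bound of the members. For the 31 *msp* genes alone, with 1 gene in the *prde-1* mutant and 0 in wild type, the interval of 0.572% to 16.2% in the *prde-1* mutant includes the shares of the short genes and of all protein-coding genes, while in wild type the upper bound lies below both shares. The annotated 5′ end is the start codon in most members, while in other genes it may lie upstream of the start codon. Shares at the 5′ end and at 80 bp upstream are therefore not like for like. In nuclei pooled in this way, a site open in few nuclei and a site weakly open in many cannot be told apart.

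For most members the nearest peak lay well outside the gene. Its median distance from the 5′ end was 3814 bp in the *prde-1* mutant and 3574 bp in wild type, where all protein-coding genes had 3562 bp in the *prde-1* mutant and 2254 bp in wild type. The short genes had 4137 bp in the *prde-1* mutant, farther than the members, and 2553 bp in wild type, nearer than the members. For the *msp* genes the medians were 4571 bp in the *prde-1* mutant and 3631 bp in wild type. The farthest was *nspd-8*, with 34641 bp in the *prde-1* mutant and 34350 bp in wild type. A group of *msp* genes lay just beyond the 500 bp window, among them *msp-65* at 610 bp in the *prde-1* mutant and 653 bp in wild type, *msp-57* at 633 bp in the *prde-1* mutant and 713 bp in wild type, and *msp-78* at 762 bp in the *prde-1* mutant and 739 bp in wild type. With the window widened to 1000 bp, 9 of 53 members (17.0%) had a peak in the *prde-1* mutant and 13 (24.5%) in wild type, where 35% of all protein-coding genes had one in the *prde-1* mutant and 43.5% in wild type.

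**Figure D3:**
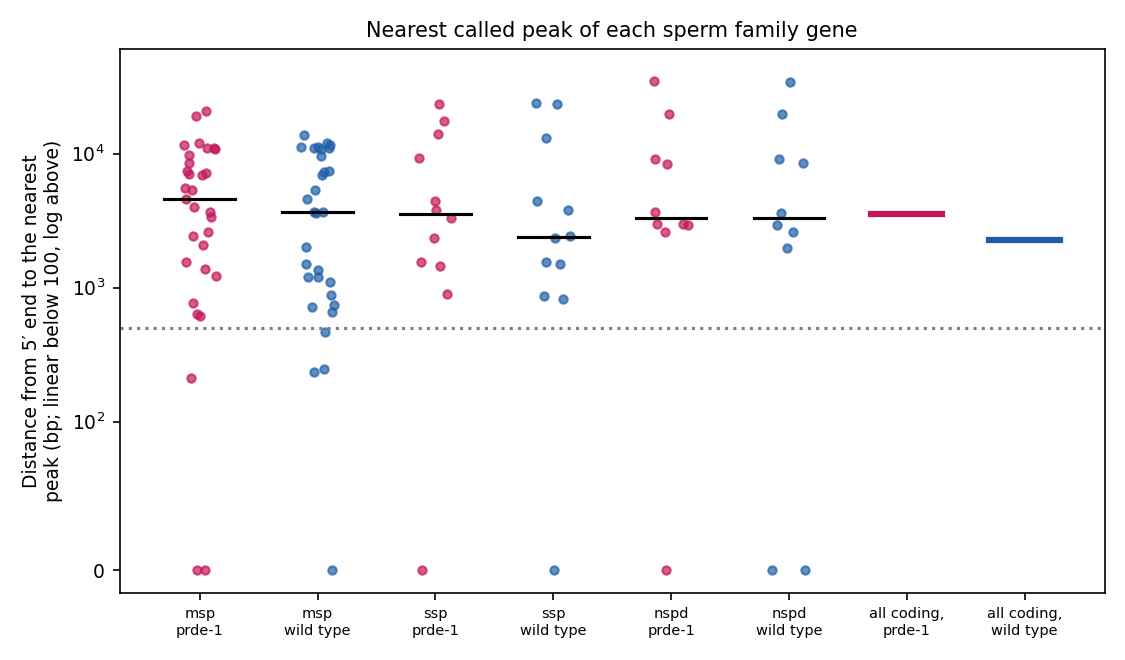
Distance from the 5′ end of each member to the nearest peak (bp, vertical; linear below 100, logarithmic above), by family and genotype; points are genes, black lines family medians, coloured lines the medians of all coding genes and the dotted line 500 bp. Most *msp*, *ssp* and *nspd* genes lie above 500 bp in both lists, and the *msp* medians of 4571 bp (*prde-1* mutant) and 3631 bp (wild type) lie above those of all coding genes.

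In all, 9 members had a peak in at least 1 list and 44 had none. *msp-50*, *ssp-16* and *nspd-7* had one in both lists, *msp-3* and *msp-64* in the *prde-1* mutant only, and *msp-31*, *msp-40*, *msp-58* and *nspd-1* in wild type only. Of the 5 *prde-1* mutant peaks at members, 2 had no wild type counterpart (40.0%, interval 11.8% to 76.9%), beside 1.91% of all *prde-1* mutant peaks. These 2 peaks ranked low, at 8051 (*msp-3*) and 8094 (*msp-64*) of 9674. The share among *prde-1* mutant peaks of like rank was not computed, so no gain at members can be read from these values. Of the 7 wild type peaks at members, 4 had no *prde-1* mutant counterpart (57.1%, interval 25.0% to 84.2%), beside 36.1% of all wild type peaks. Over all wild type peaks the share without a counterpart was 0.500% in the highest 10% of the list by score and 89.9% in the lowest 10%, and the rates over all wild type peaks in the same 10 equal bins of rank would give 66.0%, or 4.62 of 7. With so few member peaks, the loss of wild type peaks was not distinguishable from that of peaks of like rank.

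Peaks of the sperm family genes were weak by the standard of the lists. Ranked by the area score of the peak caller, with rank 1 the highest, the 5 member peaks of the *prde-1* mutant had a median rank of 7935 of 9674, and 1 of them stood in the upper 50% of the list. The 7 wild type member peaks had a median rank of 10798 of 13996, and 1 stood in the upper 50%. Peaks at short protein-coding genes had a median rank of 4063.5 in the *prde-1* mutant and 5286 in wild type, with 60.9% in the upper 50% of the list in the *prde-1* mutant and 64.4% in wild type. The median −log10 p at the summit, not adjusted for multiple tests, was 4.89 for the *prde-1* mutant peaks and 4.84 for the wild type peaks at members, where peaks at the short genes had 9.65 in the *prde-1* mutant and 10.9 in wild type. When only the upper 50% of each list was kept, *msp-50* was the single member left in either genotype (1.89% of members).

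The summits lay downstream of the 5′ end in 5 of 5 pairs of member and peak in the *prde-1* mutant and in 7 of 7 in wild type. Over the short genes this held for 23.5% of 536 pairs in the *prde-1* mutant and 31.9% of 728 in wild type, and over all protein-coding genes for 47.8% of 8700 in the *prde-1* mutant and 57.9% of 12706 in wild type. These shares are not like for like, since the 5′ end is the start codon in most members and may lie upstream of it in other genes. None of the member summits fell at the upstream matches.

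**Figure D4:**
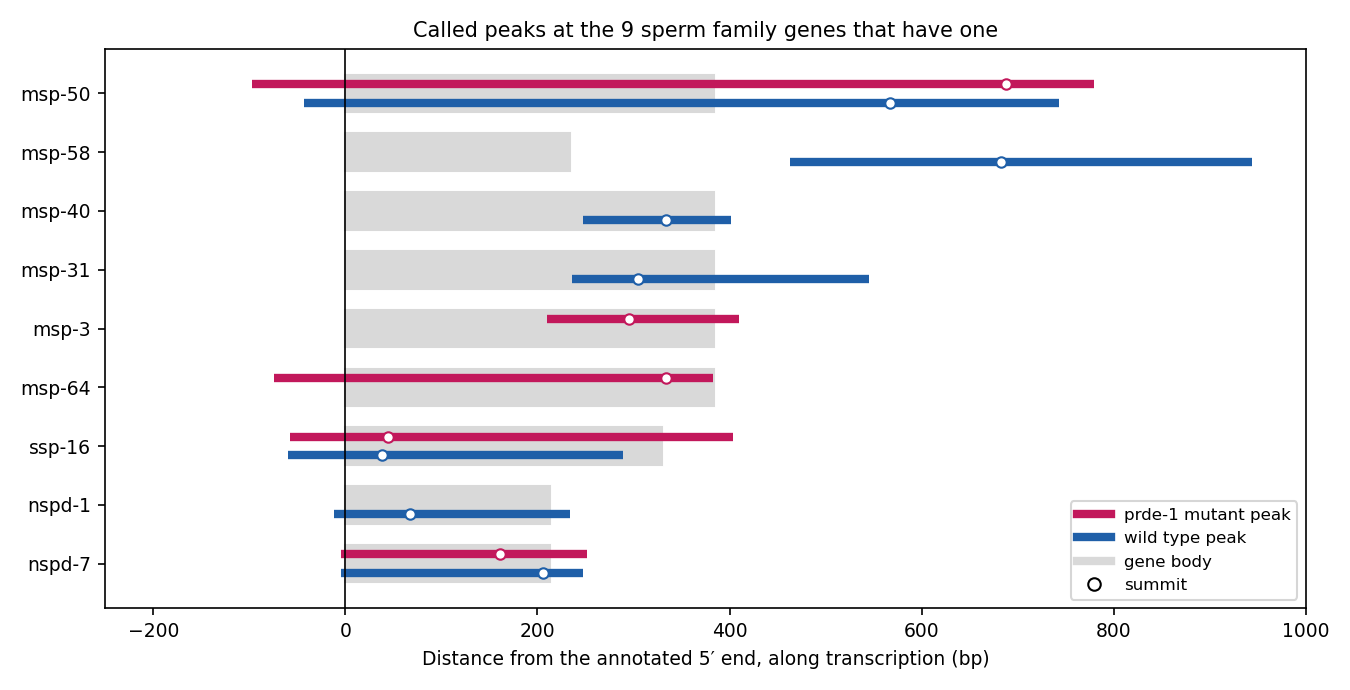
Extent of every called peak at the 9 members that have one, by distance from the annotated 5′ end in the direction of transcription (bp, horizontal), with *prde-1* mutant peaks drawn above wild type peaks, gene bodies as shaded boxes and summits as open circles. The summits of *msp-40*, *msp-31*, *msp-3* and *msp-64* lie between 295 and 334 bp downstream, within the 384 bp of the gene, and those of *msp-50* and *msp-58* lie beyond the gene end.

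The strongest member was *msp-50* (chrII:5199797-5200180, plus strand). Its *prde-1* mutant peak, chrII:5199700-5200577, was 878 bp wide, with a score of 1780, rank 2646 and a −log10 p of 7.88. Its wild type peak, chrII:5199754-5200540, was 787 bp wide, with a score of 2577, rank 3418 and a −log10 p of 11.2. Both peaks spanned the whole gene, but the summits lay 688 bp downstream of the 5′ end in the *prde-1* mutant and 567 bp in wild type, past the end of the 384 bp gene. No other annotated gene overlapped either peak. In a similar position, the wild type peak near *msp-58* (chrIV:5308593-5308826, plus strand), chrIV:5309056-5309537, began 463 bp downstream of the 5′ end of a gene of 234 bp, with rank 9566 and a −log10 p of 6.10, and overlapped no gene. The list of the *prde-1* mutant had no peak there, and its nearest lay 8540 bp away.

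In 4 *msp* genes the peak covered the last part of the coding sequence, and each was found in a single list. In the *prde-1* mutant only, *msp-3* (chrII:4785898-4786281, minus strand) had a peak of 201 bp at chrII:4785871-4786071, with rank 8051 and a −log10 p of 5.08, and *msp-64* (chrII:5809947-5810330, minus strand) had one of 458 bp at chrII:5809947-5810404, with rank 8094 and a −log10 p of 3.71. In wild type only, *msp-40* (chrII:4825414-4825797, plus strand) had a peak of 156 bp at chrII:4825661-4825816, with rank 13020 and a −log10 p of 5.05. *msp-31* (chrII:4916179-4916562, minus strand), also in wild type only, had one of 310 bp at chrII:4916017-4916326, with rank 13206 and a −log10 p of 4.21. The *msp-64* peak also reached 74 bp upstream of the 5′ end, and the *msp-31* peak ran on into *aagr-2*. The summits of these peaks lay 295 bp (*msp-3*), 334 bp (*msp-64*), 334 bp (*msp-40*) and 305 bp (*msp-31*) from the 5′ end. All of these ranks fall in the lower 50% of their lists. The coding sequence under the summits, from 285 to 344 bp downstream, is shown because the peaks recur in this one stretch of the near-copies, with capitals at the bases that differ from *msp-40*: 3 in *msp-31*, 5 in *msp-3* and 4 in *msp-64*.
msp-40: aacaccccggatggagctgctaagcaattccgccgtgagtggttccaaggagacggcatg
msp-31: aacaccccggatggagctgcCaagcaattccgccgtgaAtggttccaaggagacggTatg
msp-3: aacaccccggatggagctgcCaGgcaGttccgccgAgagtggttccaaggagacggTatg
msp-64: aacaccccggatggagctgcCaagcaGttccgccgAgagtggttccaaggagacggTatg
These stretches lie at chrII:4825699-4825758 (plus), chrII:4916218-4916277 (minus), chrII:4785937-4785996 (minus) and chrII:5809986-5810045 (minus).

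Near-identity of the copies affects which reads could be placed, since the authors discarded reads of low mapping quality. Bases were called unique where they lay in a sequence of 50 bases found at 1 place in the genome. The median unique share of the gene body was 64.1% in *msp* genes, with the lowest value of 8.33% at *msp-79*. The upstream 500 bp had a median of 100%, and 20 of 31 *msp* and 33 of 53 members were unique there throughout. The stretch from 247 to 383 bp downstream was unique at a median of 100% (range 62.8% to 100%) in the 5 *msp* genes of 384 bp with a peak and at 65.7% (range 0% to 100%) in the 23 without. Among the 27 members whose whole window was at least 90% unique, 5 (18.5%) had a peak in the *prde-1* mutant and 4 (14.8%) in wild type. Of all protein-coding genes that met the same filter, 32.2% had a peak in the *prde-1* mutant and 40.4% in wild type. No interval was computed for the shares of these 27 members. Whether they lie below the shares of all protein-coding genes beyond counting error was not tested. Without the filter the shares of the members were 9.43% in the *prde-1* mutant and 13.2% in wild type. The part of read placement in the low share of members with a peak was not tested.

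**Figure D5:**
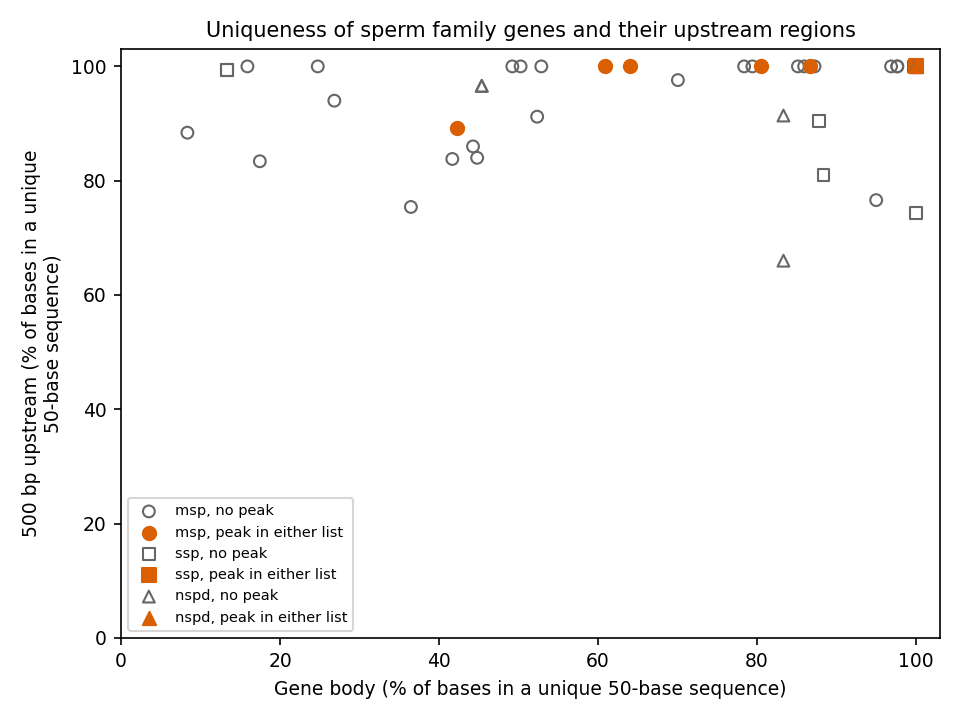
Share of bases in a unique sequence of 50 bases (%) in the gene body (horizontal) and in the 500 bp upstream (vertical) for each member, filled where the member has a peak in either list. Gene bodies of *msp* genes spread from 8.33% to 100%, while upstream regions are mostly at 100%, and 14 members share the upper right corner.

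Among the shorter families, *nspd-7* (chrIV:10268975-10269187, minus strand) had nearly the same peak in both lists. It was 258 bp wide (chrIV:10268935-10269192, rank 7935, −log10 p 4.06) in the *prde-1* mutant and 253 bp wide (chrIV:10268940-10269192, rank 12674, −log10 p 4.23) in wild type. Both began 5 bp upstream of the 5′ end and covered the gene, which is unique throughout. Its upstream sequence shown above has none of the 3 exact matches. Of the 7 *nspd* genes with the ordered pair of matches 0 had a peak in the *prde-1* mutant and 0 in wild type, where the whole family had 1 of 10 in the *prde-1* mutant and 2 of 10 in wild type. Of the 14 *msp* genes with the ordered matches, 1 had a peak in the *prde-1* mutant (7.14%, *msp-50*) and 2 in wild type (14.3%, *msp-50* and *msp-31*), where the whole family had 3 of 31 (9.68%) in the *prde-1* mutant and 4 of 31 (12.9%) in wild type. These counts do not separate genes with the ordered matches from the rest of their families.

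The other peaks of these families lay together on chromosome I, where 7 members are placed. *ssp-16* (chrI:6102067-6102396, plus strand) had a peak of 463 bp in the *prde-1* mutant (chrI:6102009-6102471, rank 6772, −log10 p 4.89) and one of 350 bp in wild type (chrI:6102007-6102356, rank 10798, −log10 p 4.82). Its summits, 44 bp downstream of the 5′ end in the *prde-1* mutant and 38 bp in wild type, were the closest to a 5′ end among the members. *nspd-1* (chrI:6097579-6097791, minus strand) had a wild type peak only, 247 bp wide at chrI:6097557-6097803, with rank 10635 and a −log10 p of 4.84. Between these genes, in a span of 4.82 kb, lies *spch-3*, which encodes a sperm chromatin protein and had a wild type peak only, of 253 bp with rank 11218.

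Of the 53 members, 42 fell in 5 clusters, taken as runs of at least 3 members with gaps of at most 200 kb, and the other 11 were unclustered. Chromosome II holds 15 members and chromosome IV 28. Of the 279 other protein-coding genes inside the clusters, 95 (34.1%) had a peak in the *prde-1* mutant and 108 (38.7%) in wild type, beside 31.2% of all protein-coding genes in the *prde-1* mutant and 39.4% in wild type.

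The clusters differed in peak density. II cluster A (chrII:4785898-5200180, 10 *msp* and 2 *nspd* genes) held 48 peaks in the *prde-1* mutant (116 per Mb) and 69 in wild type (167 per Mb), and 2 of its 12 members had a peak in the *prde-1* mutant and 3 in wild type. The nuclear genome as a whole held 96.5 peaks per Mb in the *prde-1* mutant and 140 per Mb in wild type. II cluster B (chrII:5797065-5810330, 3 *msp* genes) held only the *msp-64* peak of the *prde-1* mutant and none in wild type, in 13.3 kb, and its 4 other protein-coding genes had 0 peaks in the *prde-1* mutant and 0 in wild type. IV cluster A (chrIV:4994371-5316906, 9 *msp*, 2 *ssp* and 2 *nspd* genes) had the lowest density of the 4 larger clusters, with 26 peaks in the *prde-1* mutant (80.6 per Mb) and 30 in wild type (93.0 per Mb). Its 13 members had 0 peaks in the *prde-1* mutant and 1 in wild type. The cluster also held 405 piRNA genes, against 3, 0, 10 and 0 in II clusters A and B and IV clusters B and C. *ssq-2*, named for another sperm-specific family, had the highest-scoring peak at one of its other protein-coding genes, with rank 1963 in the *prde-1* mutant and 2668 in wild type. In IV cluster B (chrIV:9689015-9896136, 7 *msp*, 3 *ssp* and 1 *nspd* gene) the density was 111 peaks per Mb in the *prde-1* mutant and 135 per Mb in wild type, and none of the 11 members had a peak in either list, while 18 of the 51 other genes had one in the *prde-1* mutant and 20 in wild type. IV cluster C (chrIV:10095433-10269187, 2 *msp* genes and *nspd-7*) had 150 peaks per Mb in the *prde-1* mutant and 167 per Mb in wild type. Wild type peaks that lacked a *prde-1* mutant counterpart made up 33.3% (interval 23.4% to 45.1%) in II cluster A, 16.7% (7.34% to 33.6%) in IV cluster A, 17.9% (7.88% to 35.6%) in IV cluster B and 24.1% (12.2% to 42.1%) in IV cluster C, beside 36.1% of all wild type peaks. These intervals overlap one another. The upper bounds of IV clusters A and B lie below 36.1%, while the intervals of II cluster A and IV cluster C include it. Peaks were not matched by rank here, although the share without a counterpart varied with rank, so a difference from peaks of like rank was not tested.

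The other spermatogenesis genes gave a mixed picture. The highest-ranked peaks of the list, in both genotypes, were at *spe-9* and *spe-15*. *spe-9*, which encodes a sperm surface protein needed for fertilization, had a best peak of rank 560 in the *prde-1* mutant and 123 in wild type. None of its peaks held the 5′ end. *spe-15*, which encodes an unconventional myosin, had one of rank 209 in the *prde-1* mutant and 184 in wild type. It is the longest gene of the list, at 18862 bp, and so offers more room for a peak. *elt-1*, which encodes a GATA factor, had a best peak of rank 8280 in the *prde-1* mutant and 7204 in wild type. The sperm phosphatase genes *gsp-3* and *gsp-4* and the sperm fate genes *fog-1* and *fog-3* had 0 peaks in the *prde-1* mutant and 0 in wild type.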

How the data were processed

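ATAC-seq of IGN was deposited as 1 peak list per genotype, each from 3 samples. The authors trimmed reads with cutadapt, aligned them to ce11 with Bowtie2, removed mitochondrial, duplicate and poorly mapped reads, downsampled and merged replicates, kept short fragments and called peaks with Genrich (version not given in the sources used here). Reads from near-identical gene copies can be lost at the mapping filter, and broad or weak signal at the calling threshold. The deposited score, an area of −log10 p over the width of a peak, served to rank peaks inside each list. The deposited −log10 p at the summit is not adjusted for multiple tests. Differential accessibility, which needs reads, was not analysed here. The lists hold 0 columns of values per sample.

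Gene positions came from Ensembl release 115 (WBcel235, the assembly also called ce11), and sequence from the NCBI RefSeq record of the same assembly. Of the 53 members, 52 had the same start and end in RefSeq, and 51 gene lengths were multiples of 3, so these are mostly coding lengths. Other protein-coding genes were placed by the annotated gene start, which may lie upstream of the start codon. A peak counted for a gene when at least 1 base lay within 500 bp of the 5′ end or in the gene body, and as shared when 1 base or more was in common with a peak of the other genotype. Motifs were exact matches on both strands. 14 members have another protein-coding 5′ end within 500 bp.

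The members, gene lists and named genes were chosen with earlier results of these data known. Named are members with a peak, the highest-scoring member of each family and cluster, and *prde-1*. Other members, the ordered matches, the base 80 bp upstream and the coding stretch were chosen after values were seen. Of the spermatogenesis list, 6 names were not matched. Alternatives were the upper 50% of each list, equal list sizes, other windows and overlap rules, and other comparison genes. The counting was tested on simulated peaks. Python 3.11.15, numpy 2.4.6, scipy 1.17.1, pandas 2.3.3 and matplotlib 3.10.9 were used.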

Additional observations from a re-analysis of the deposited data

How the results depend on the processing

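Across 8 results, 76 values were computed under alternatives, of which 59 stayed within the interval of the main value and 17 moved outside it. The direction changed in 0, but only the differences between members and other genes could change direction, because a share cannot be negative. No pseudogene carried the same prefixes, so the alternative that added pseudogenes repeated the main values. With the upper 50% of each list, the share of members with a peak was 1.89% in the *prde-1* mutant and 1.89% in wild type, the wild type share was 3.23% in *msp*, 0% in *ssp* and 0% in *nspd* genes, and 0% of member wild type peaks (0 of 1) lacked a counterpart. With the wild type list reduced to the size of the *prde-1* mutant list, the wild type share was 3.77% over members, 0% in *ssp* and 0% in *nspd* genes. With the 5′ end inside a peak, the wild type share in *msp* genes was 3.23%, and 25.0% of member wild type peaks lacked a counterpart. The share of members minus that of other protein-coding genes was −21.8 percentage points in the *prde-1* mutant and −26.2 in wild type. With the 5′ end inside a peak it was −1.63 in the *prde-1* mutant and −5.68 in wild type, and it was −13.5 in wild type against genes no longer than the longest member. In comparisons added after seeing the data, it was −13.2 in wild type against those short genes without the gene body, and −0.471 in the *prde-1* mutant and −4.08 in wild type with the 5′ end inside a peak against them.

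No paired analysis was possible because each genotype has a single pooled list and no values per sample. No replicate was left out for the same reason. Depth behind the peaks is unknown, so a member without a peak is one where none was called, not one shown to be closed.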

Other observations

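The order of AGATCT before AGATAA before TATAAA within 45 bp, seen upstream of 14 *msp* genes, was also found at 7 other protein-coding genes, named here after their values were seen: *msrp-1*, *msrp-4*, *msrp-5*, *msrp-6*, F58A6.9 and both genes called Y59E9AR.7. Of these, 0 had a peak in the *prde-1* mutant and 0 in wild type. The opposite-strand GATA match followed by the palindrome, seen upstream of 7 *nspd* genes, was found at 28 other protein-coding genes, of which 8 (28.6%) had a peak in the *prde-1* mutant and 10 (35.7%) in wild type, near the 31.2% and 39.4% of all protein-coding genes in the *prde-1* mutant and wild type. The median GC content of the gene body was 51.3% in members, against 36.4% over all protein-coding genes, while that of the promoter window was 36.0% against 34.3%. The gene bodies are not like for like. Of the 53 members, 50 have a single exon, while bodies of all protein-coding genes were taken from start to end with any introns.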
